A study of Mus musculus with 18 samples.

Results

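The effect of a high-fat diet on the testis transcriptome was measured by comparing 6 libraries from mice on the diet with 6 libraries from mice without it. These 12 libraries are a subset of the 18 in the study, and were taken by their column names. All came from whole testis of ICR mice, an outbred stock, at 10 weeks of age. The group without treatment (control) and the high-fat diet group (HFD) received no AOS, an agent that the labels do not spell out. The AOS group and the HFD-AOS group were labelled with AOS at 10 mg/kg, the second of these together with the high-fat diet. Each of the 4 groups held 3 libraries, so that both the diet comparison and the AOS comparison set 6 libraries against 6. The remaining 6 libraries, 3 labelled HFD-AOSFMT (also with 10 mg/kg) and 3 labelled HFD-conFMT, combined the diet with an FMT. They were left out of the diet comparison, apart from the filter on low values and 1 alternative that fitted all 18 libraries. The series was set up to look at FMT in testes that its design text calls damaged by the diet. The diet comparison averages the effect of the diet over libraries with and without AOS. The composition and length of the diet and the route of AOS were not given in the labels. No label says whether the 3 libraries of a group came from separate animals, and the p-values measure only the spread between these libraries.

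The testis makes sperm in the seminiferous tubules, where Sertoli cells carry germ cells from spermatogonia through meiosis to round and then elongating spermatids. Leydig cells between the tubules convert cholesterol to testosterone, and the 3-beta-hydroxysteroid dehydrogenases act within that pathway. Tissue kallikreins are secreted serine proteases encoded by a tandem family of near copies in the mouse.

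Levels are FPKM, fragments scaled to transcript length and to library size, and differences are log2 fold changes of FPKM + 1, which understate the change of genes of low level. FPKM summed to between 588081 and 637005 per library over the 18 libraries. No read counts were used here, so the depth behind a value is unknown. Between 12996 and 13221 genes reached 1 FPKM in a library. The protamine and transition protein transcripts of elongating spermatids took 6.54% (HFD 2) to 9.23% of the summed FPKM in the 12 libraries, and the Leydig cell hormone Insl3 lay between 2119 and 4367 FPKM across them. Libraries that stood apart among those without the diet were control 3 and AOS 3. The epididymal gene Crisp1 reached 159 FPKM in control 3, 2.71 in control 1 and at most 0.40 in the other 10 libraries. The interferon regulator Irf7 reached 4.38 FPKM in AOS 3 and lay between 0.51 and 1.23 in the other libraries without the diet. With the diet it was at 1.08, 0.87 and 0.99 FPKM in HFD and at 3.28, 2.97 and 1.35 in HFD-AOS libraries.

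No gene was called for the diet. In an additive limma model with diet and AOS as factors (9 residual degrees of freedom), 0 of 13105 genes averaging 1 FPKM or more were higher and 0 were lower at an adjusted p under 0.05, which is 0% of the genes tested. The lowest adjusted p was 0.46, for genes that included Izumo2, Gnmt, the beta-globin genes Hbb-b1 and Hbb-b2, and the kallikreins Klk1b21 and Klk1b24. Unadjusted p-values under 0.05 were found for 960 genes (7.33%), of which 450 were higher (3.43%) and 510 lower (3.89%) with the diet. A uniform spread of p-values would give 655. The AOS term of the same model likewise called 0 genes, with a lowest adjusted p of 0.059 and 2260 genes at an unadjusted p under 0.05.

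Fold changes were small beside their errors. The median absolute log2 fold change was 0.049 and the median standard error 0.059. The 95% interval lay within 0.5 on either side of 0 for 12616 genes (96.27%) and within 0.25 for 9704 genes (74.05%). A fold change of 0.5 or more was estimated for 75 genes, 26 higher and 49 lower with the diet. The 6 diet libraries all lay above the 6 libraries without the diet in 10 genes (0.0763% of those tested) and all below in 15 genes (0.114%). Those above included Serpina1b, Tmigd3, Lgr5 and Dll3, and those below included Gnmt, Mob1b, Tfr2 and Kdm2b, some of them named after their values were seen.

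The 24 genes described next were the 12 of smallest p in each direction, leaving out predicted and clone names and genes under 2 FPKM. Their fold changes in the diet comparison are therefore given as a description of these libraries. Their 6 diet libraries and 6 libraries without the diet were separate in 3 of 24 genes, Tmigd3, Gnmt and Mob1b. All genes tested gave 0.0763% above and 0.114% below, but the choice by smallest p in these libraries itself favours separate groups.

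Gnmt encodes glycine N-methyltransferase, which consumes methyl groups from S-adenosylmethionine (chromosome 17, 46725664 to 46729168, mm10). Its level was 3.94, 3.43 and 2.41 FPKM in the control libraries and 1.60, 2.22 and 1.81 in the HFD libraries. With AOS it was 2.63, 3.19 and 2.30 FPKM, and 1.45, 1.68 and 1.64 with AOS and the diet. Every diet library lay below every library without the diet, by a log2 fold change of -0.53 (SE 0.093, limma adjusted p = 0.46). The diet effect was -0.56 without AOS and -0.51 with it. Gnmt is a low-level gene here, and its lowest value without the diet (2.30) and highest with it (2.22) were close.

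Ass1 encodes argininosuccinate synthase, which makes the precursor of arginine (chromosome 2, 31470207 to 31520672). Its level was 98.6, 76.2 and 125 FPKM in control and 68.5, 70.4 and 73.3 in HFD libraries. It was 71.7, 79.8 and 68.7 FPKM with AOS and 48.1, 57.9 and 59.8 with AOS and the diet. The diet libraries lay below their own controls both with and without AOS, but the HFD libraries overlapped the AOS libraries (log2 fold change -0.43, SE 0.097, adjusted p = 0.49). Itih2, a heavy chain of a secreted inhibitor that binds hyaluronan, was 11.02, 7.92 and 10.3 FPKM in control, 5.46, 6.01 and 8.22 in HFD, 7.59, 11.6 and 6.78 in AOS and 4.25, 5.54 and 5.54 in HFD-AOS libraries. HFD 3 lay above the lowest control library (log2 fold change -0.58, SE 0.13, adjusted p = 0.49).

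Mmd2, a membrane protein of the progestin and adipoQ receptor family, was 21.9, 20.2 and 24.8 FPKM in control and 18.1, 17.8 and 18.03 in HFD libraries. It was 17.5, 18.9 and 17.2 FPKM in AOS and 15.1, 16.3 and 15.8 in HFD-AOS libraries. Each diet group lay below its own control group, and the AOS group lay near the HFD group (log2 fold change -0.23, SE 0.049, adjusted p = 0.49). Mob1b, an adaptor of the Hippo kinases, was 4.54 to 4.94 FPKM without the diet and 3.69 to 4.43 with it (log2 fold change -0.20, SE 0.045, adjusted p = 0.53). The zinc finger gene Zbtb42 was 14.8 to 17.9 FPKM without the diet and 12.3 to 15.3 with it, and the collagen gene Col26a1 5.32 to 7.33 and 4.97 to 5.65, both with overlap between the groups.

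**Figure D1:**
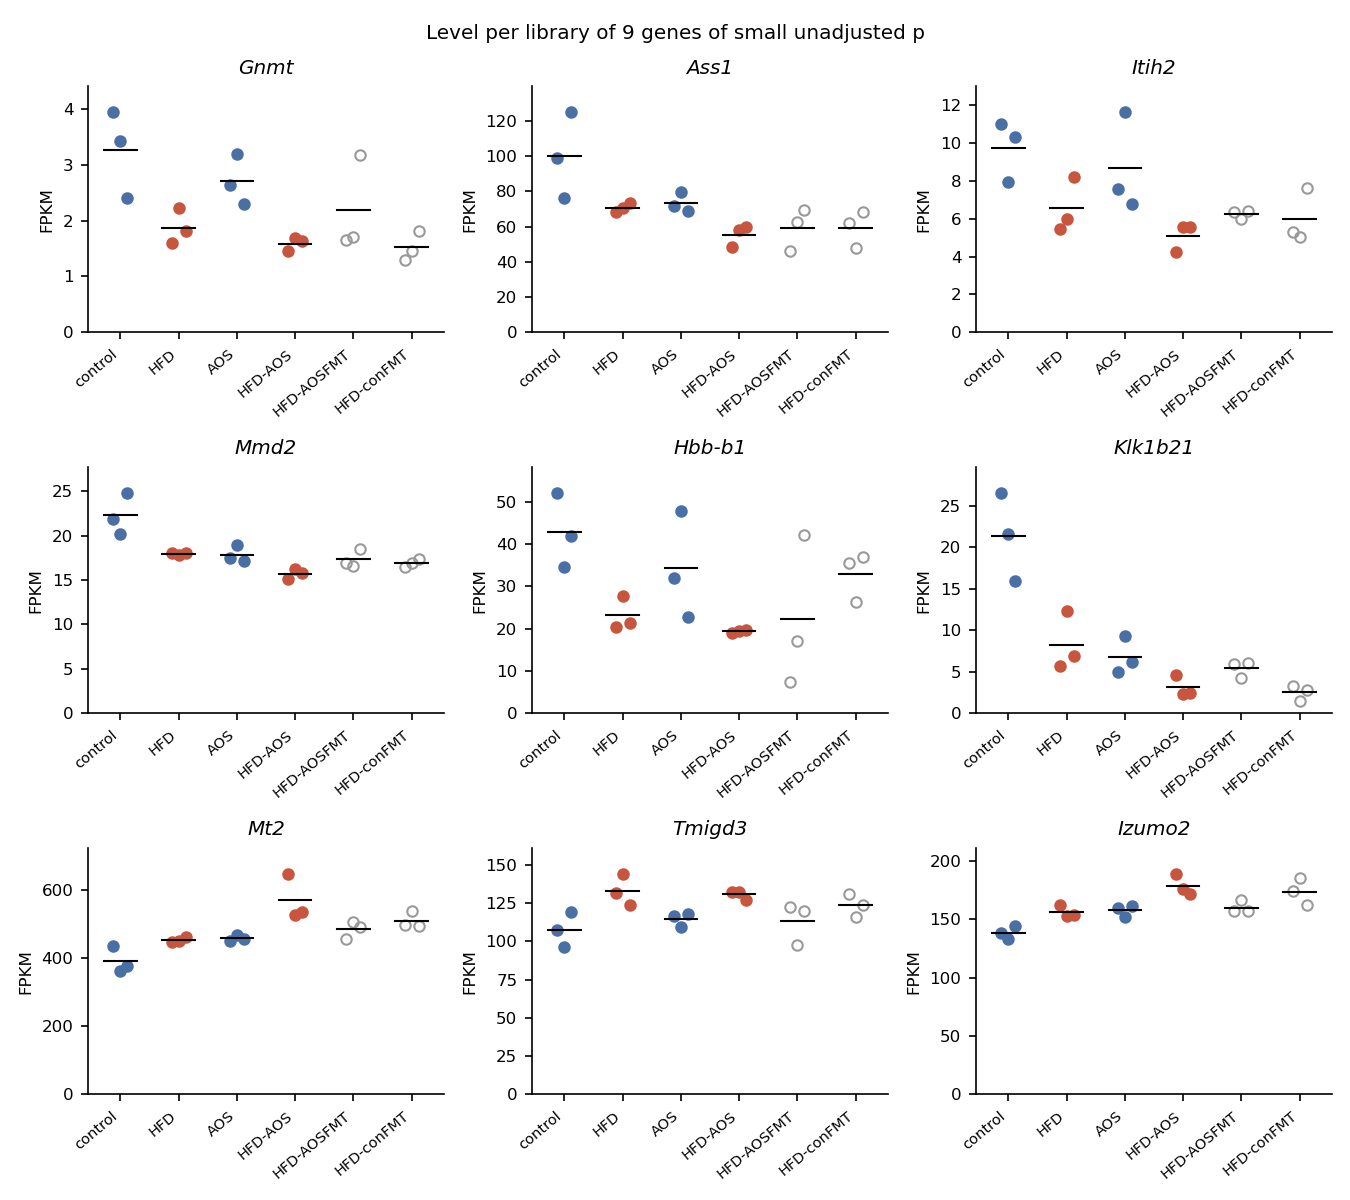
Level of 9 genes of small unadjusted p in FPKM (vertical axes, linear, from 0) in each library, by group, with 3 libraries per group and the group mean as a bar. Libraries without the diet are blue, those with it red, and the transplant libraries, which were left out of the diet comparison, open; Gnmt and Tmigd3 are the genes shown whose 6 red points are all on 1 side of the 6 blue ones.

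The kallikreins Klk1b21, Klk1b24 and Klk1b27 had the lowest fold changes of their family. Klk1b27 was added after its values were seen. Their RefSeq promoters (GRCm38.p6, plus strand of chromosome 7, 250 bases before and 50 after the annotated start) are shown as those of close copies. They are Klk1b21 at chr7:44102042-44102341, Klk1b24 at chr7:44187986-44188285 and Klk1b27 at chr7:44052040-44052339. Capitals mark the longest run common to all 3, which was 89 bases and began 115, 150 and 137 bases before the start.
Klk1b21: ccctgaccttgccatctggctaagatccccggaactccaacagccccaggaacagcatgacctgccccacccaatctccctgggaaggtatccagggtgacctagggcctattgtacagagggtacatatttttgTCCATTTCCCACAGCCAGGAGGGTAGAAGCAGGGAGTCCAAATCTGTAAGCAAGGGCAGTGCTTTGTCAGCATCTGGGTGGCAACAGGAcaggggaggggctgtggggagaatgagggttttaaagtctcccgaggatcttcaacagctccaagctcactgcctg
Klk1b24: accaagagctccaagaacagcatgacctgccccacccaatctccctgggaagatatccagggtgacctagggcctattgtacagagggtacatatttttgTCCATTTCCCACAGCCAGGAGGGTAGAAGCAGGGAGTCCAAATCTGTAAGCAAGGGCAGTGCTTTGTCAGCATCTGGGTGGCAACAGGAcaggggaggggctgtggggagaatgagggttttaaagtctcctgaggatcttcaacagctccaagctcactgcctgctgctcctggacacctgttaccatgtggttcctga
Klk1b27: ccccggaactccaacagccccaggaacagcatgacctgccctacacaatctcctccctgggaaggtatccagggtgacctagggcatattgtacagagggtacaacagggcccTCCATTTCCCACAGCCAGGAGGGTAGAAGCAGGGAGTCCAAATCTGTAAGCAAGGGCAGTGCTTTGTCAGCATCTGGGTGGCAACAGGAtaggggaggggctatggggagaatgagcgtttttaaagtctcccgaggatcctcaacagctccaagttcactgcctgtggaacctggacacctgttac
The shared run is a description of the sequences and no binding site was tested. Over their longest annotated transcripts Klk1b21 and Klk1b24 were 94.1% identical, Klk1b21 and Klk1b27 93.9%, and Klk1b24 and Klk1b27 93.3%. Of the 50-base windows of the Klk1b21 transcript, 20.6% occurred exactly in Klk1b24 and 9.25% in Klk1b27. Of those of Klk1b24, 10.5% occurred exactly in Klk1b27. The reads of such close copies cannot all be assigned to 1 gene with certainty.

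Klk1b21 was at 26.5, 21.6 and 16.0 FPKM in control and 5.64, 12.3 and 6.88 in HFD libraries. It was at 4.92, 9.28 and 6.21 FPKM in AOS and 4.59, 2.31 and 2.41 in HFD-AOS libraries. The diet libraries lay below their own controls with and without AOS, while the HFD and AOS groups overlapped (log2 fold change -1.12, SE 0.21, adjusted p = 0.46). Klk1b24 was at 29.6, 23.4 and 13.7 FPKM in control, 6.62, 13.2 and 6.93 in HFD, 6.03, 9.20 and 7.27 in AOS and 5, 1.88 and 3.21 in HFD-AOS libraries (log2 fold change -1.12, SE 0.22, adjusted p = 0.46). Klk1b27 followed the same order of groups, with a log2 fold change of -1.02 (SE 0.25, adjusted p = 0.56). Their summed level, which does not depend on how reads were split among the 3, was 60.2 ± 19.1 FPKM (SD, n = 3) in control, 24.2 ± 9.63 in HFD, 19.4 ± 5.22 in AOS and 8.88 ± 4.32 in HFD-AOS libraries. Of the 14 kallikreins listed, 10 were tested, 3 had higher and 7 lower estimates, and 0 were called. Their median was -0.097 and ran from -0.22 without control 3 to -0.044 without AOS 3. The sign differed within the family. Klk1b8, added after its values were seen and whose transcript was 85.4% identical to Klk1b21, lay between 75.1 and 102 FPKM without the diet and 85.4 and 108 with it (log2 fold change 0.096, SE 0.061, adjusted p = 0.73).

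The adult beta-globin genes Hbb-b1 and Hbb-b2 encode a chain of the red cell oxygen carrier and mark blood in a tissue sample. Hbb-b1 was at 52.0, 34.7 and 41.9 FPKM in control, 20.5, 27.7 and 21.4 in HFD, 32.1, 48.0 and 22.8 in AOS and 19.0, 19.6 and 19.8 in HFD-AOS libraries (log2 fold change -0.79, SE 0.15, adjusted p = 0.46). Each diet group lay below its own controls, and the HFD and AOS groups overlapped. Hbb-b2 gave a log2 fold change of -0.84 (SE 0.15, adjusted p = 0.46). Hbb-bs went the other way, at 0.29, 19.0 and 3.28 FPKM in control, 14.5, 4.16 and 1.16 in HFD, 0.30, 0.14 and 3.98 in AOS and 4.95, 4.79 and 13.1 in HFD-AOS libraries. Its groups overlapped (log2 fold change 1.115, SE 0.69, adjusted p = 0.72). The sum of Hbb-b1, Hbb-b2, Hbb-bs and Hbb-bt was 56.2 ± 4.61 FPKM (SD, n = 3) in control, 34.1 ± 8.03 in HFD, 39.9 ± 12.5 in AOS and 29.0 ± 5.79 in HFD-AOS libraries. Neither Hbb-b1 nor Hbb-b2 had a single matching gene in the GENCODE annotation. The sequences behind these symbols were not compared, and how reads were divided among them is unknown. The mice were of an outbred stock, and the part of genotype in these beta-globin levels was not tested. The alpha-globin gene Hba-a1 was at 53.0 to 110.02 FPKM without the diet and 36.0 to 79.1 with it, with overlap (log2 fold change -0.53, SE 0.19, adjusted p = 0.66). Alas2, the first enzyme of red cell haem synthesis, had a log2 fold change of -0.022, whose sign changed in 2 of 26 alternatives. In whole tissue, fewer cells of a type and less RNA per cell cannot be told apart, and the part of blood in any other difference was not tested.

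Among genes of Leydig cells, a pair of neighbouring copies had estimates of opposite sign, neither of them called. Hsd3b1 and Hsd3b6 both encode 3-beta-hydroxysteroid dehydrogenases, which convert pregnenolone to progesterone, and lie on the minus strand of chromosome 3 (98852194 to 98859794 and 98805504 to 98814443). Their RefSeq promoters (GRCm38.p6, minus strand, chr3:98859745-98860044 and chr3:98814394-98814693) are shown because the pair gave estimates of opposite sign. The longest runs they share at any offset were 7 bases, and capitals mark the first found of 4 such runs.
Hsd3b1: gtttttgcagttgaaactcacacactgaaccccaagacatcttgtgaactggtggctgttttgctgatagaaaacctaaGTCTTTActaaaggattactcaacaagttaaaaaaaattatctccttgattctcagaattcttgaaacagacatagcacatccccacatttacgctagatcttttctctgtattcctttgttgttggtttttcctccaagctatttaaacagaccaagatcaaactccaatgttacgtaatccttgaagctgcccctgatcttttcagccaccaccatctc
Hsd3b6: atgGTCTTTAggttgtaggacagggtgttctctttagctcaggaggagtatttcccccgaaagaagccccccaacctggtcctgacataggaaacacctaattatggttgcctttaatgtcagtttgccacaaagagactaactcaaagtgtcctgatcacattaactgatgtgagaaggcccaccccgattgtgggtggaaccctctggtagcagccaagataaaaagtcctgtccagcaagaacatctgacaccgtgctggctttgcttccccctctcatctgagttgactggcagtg
The aligned promoters were 65.3% identical and the transcripts 81%, and 2.1% of 50-base windows of the Hsd3b1 transcript occurred exactly in that of Hsd3b6.

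Hsd3b1 was at 81.6, 64.5 and 67.5 FPKM in control and 91.9, 99.9 and 79.2 in HFD libraries. It was at 62.7, 87.6 and 48.1 FPKM in AOS and 109.8, 102 and 109 in HFD-AOS libraries, so that each diet group was higher on average with overlap where AOS was not given (log2 fold change 0.53, SE 0.13, adjusted p = 0.56). Hsd3b6 was at 25.1, 32.2 and 40.1 FPKM in control, 22.3, 21.5 and 22.6 in HFD, 29.3, 33.0 and 26.4 in AOS and 14.9, 16.2 and 25.9 in HFD-AOS libraries. Each diet group lay below its own controls (log2 fold change -0.58, SE 0.13, adjusted p = 0.49). The sum of both was 104 ± 6.06 FPKM in control, 113 ± 9.93 in HFD, 95.7 ± 23.3 in AOS and 126 ± 8.57 in HFD-AOS libraries (SD, n = 3). Hsd3b6 made up 23.5% to 37.3% of that sum in control, 27.4% to 35.4% in AOS, 17.7% to 22.2% in HFD and 11.95% to 19.2% in HFD-AOS libraries. This share, computed after the values of both genes were seen, was lower in all 6 diet libraries than in the 6 others. Both genes had been chosen by small p with opposite signs in these libraries, and that choice itself favours such a separation. In the transplant libraries, also on the diet, the share was 11.4% to 17.7% in HFD-conFMT and 15.3% to 32.7% in HFD-AOSFMT.

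The other steps of steroid synthesis, named after their values were seen, gave smaller estimates, and those of Star, Cyp11a1 and Lhcgr changed sign in 4, 5 and 7 of 26 alternatives. Star, which carries cholesterol into the mitochondrion, had a log2 fold change of -0.017 (SE 0.10). Cyp11a1, which cuts the cholesterol side chain, was at 76.5 to 142 FPKM without the diet and 97.1 to 125 with it. Its estimate was -0.22 without AOS and 0.18 with AOS, and the difference of these was not called (adjusted p = 0.91). Cyp17a1, which makes androgens from progesterone, had a log2 fold change of -0.086 (SE 0.082), with -0.24 without AOS and 0.069 with AOS. Hsd17b3, also on this list, had 0.19 (SE 0.13, limma adjusted p = 0.74), with 0.0028 without AOS and 0.37 with AOS. Lhcgr, the receptor for luteinizing hormone, had 0.0053 (SE 0.11). Of the 19 Leydig cell and steroidogenesis genes 17 were tested, 7 with higher and 10 with lower estimates. None was called by limma, and Hsd3b1 and Hsd3b6 (11.76%, against 7.33% of all genes) were the members at an unadjusted p under 0.05.

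**Figure D2:**
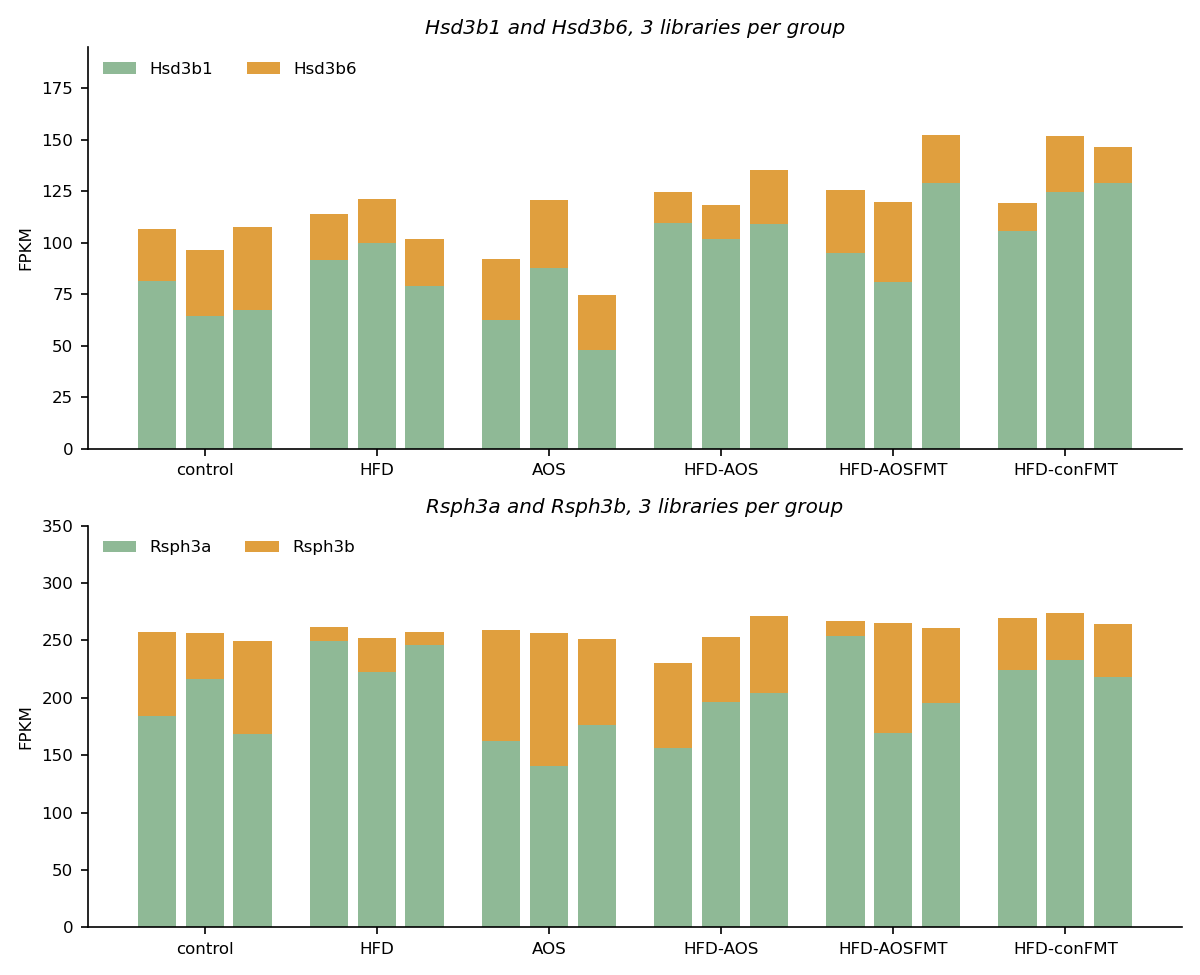
Stacked bars of FPKM (vertical axes from 0) for Hsd3b1 with Hsd3b6 (top) and Rsph3a with Rsph3b (bottom), each bar a library and 3 libraries per group. The Hsd3b6 part is at most 22.2% of its bar in the HFD and HFD-AOS libraries and at least 23.5% in the control and AOS libraries, by which both genes were chosen. Rsph3b takes on average 25.5% of its bars in control, 6.93% in HFD, 37.5% in AOS and 26.4% in HFD-AOS libraries.

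Rsph3a and Rsph3b, 2 copies of a radial spoke protein of the sperm tail, were looked at after Rsph3b gave the lowest p of the diet effect without AOS. Rsph3b was at 72.9, 39.9 and 81.2 FPKM in control and 12.4, 29.1 and 11.6 in HFD libraries. With AOS it was at 96.4, 116 and 75.4 FPKM, and at 73.9, 56.8 and 67.0 with AOS and the diet. The difference between the 2 diet effects was not called (adjusted p = 0.89). Rsph3a was at 184, 217 and 168 FPKM in control, 249, 223 and 246 in HFD, 162, 141 and 176 in AOS and 156, 196 and 204 in HFD-AOS libraries. Their sum was 254 ± 4.32 FPKM (SD, n = 3) in control, 257 ± 5.02 in HFD, 256 ± 3.83 in AOS and 252 ± 20.5 in HFD-AOS libraries. The transcripts were 99.2% identical, and 74% of 50-base windows of Rsph3a occurred exactly in Rsph3b, so the division of reads between them is uncertain. The sum differed between control and HFD libraries by less than 1 SD of either group.

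Genes of fatty acid synthesis mostly had estimates below 0. Of 23 genes in the list of synthesis and elongation 20 were tested, and 3 had higher and 17 lower estimates with a median log2 fold change of -0.073. Over all genes tested 5931 of 13105 estimates (45.26%) were positive and the median was -0.0084. The list's median was -0.065 without AOS and -0.075 with AOS. None was called by limma, and 4 (20%, against 7.33% of all genes) were at an unadjusted p under 0.05. These were Fasn, Me1, Fads1 and Gpam, all with lower estimates. Fasn, the fatty acid synthase, was at 9.50, 9.60 and 9.57 FPKM in control, 8.44, 9.01 and 8.27 in HFD, 9.05, 8.57 and 8.72 in AOS and 8.46, 7.97 and 8.20 in HFD-AOS libraries. The diet libraries of Fasn lay below their own controls with and without AOS, by a log2 fold change of -0.11 (SE 0.036, adjusted p = 0.66). Fads1, a desaturase of polyunsaturated fatty acids, was at 35.2, 30.6 and 47.9 FPKM in control, 27.1, 27.9 and 33.2 in HFD, 25.2, 27.9 and 25.8 in AOS and 21.5, 20.7 and 24.9 in HFD-AOS libraries, with overlap where AOS was not given (log2 fold change -0.28, SE 0.094, adjusted p = 0.66).

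For fatty acid uptake and oxidation, 36 of 42 genes were tested, with 13 higher and 23 lower estimates, a median of -0.027 and 0 members at an unadjusted p under 0.05. With a library left out that median ran from -0.053 (AOS 3) to -0.0067 (AOS 2). Acads, a short-chain acyl-CoA dehydrogenase, was at 3.21 to 4.40 FPKM without the diet and 3.02 to 4.19 with it (log2 fold change -0.14, SE 0.075, adjusted p = 0.70). Lipid droplet genes had 11 of 17 members tested, 4 higher and 7 lower. Cholesterol synthesis had all 23 tested, 6 higher and 17 lower with a median of -0.037, and Mvd, a decarboxylase of that pathway, was the member at an unadjusted p under 0.05 (log2 fold change -0.15, SE 0.068, adjusted p = 0.68). Genes of cholesterol uptake, storage and efflux were split 6 to 6. No member of these lists was called. Insulin, IGF and leptin signalling had 16 of 21 members tested, 4 higher and 12 lower. Its lowest p was that of the growth factor gene Igf2, at 1.83 to 2.25 FPKM without the diet and 2.17 to 3.24 with it (log2 fold change 0.25, SE 0.075, adjusted p = 0.66).

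Spermatid genes mostly had estimates above 0. Of 30 round spermatid genes, all tested, 24 had higher and 6 lower estimates, with a median of 0.050 that was 0.052 without AOS and 0.053 with AOS. None was called by limma, and 6 (20%, against 7.33% of all genes) were at an unadjusted p under 0.05. These were Acrv1, Spaca4, Spaca7, Sun5, Catsper1 and Tex101, all higher. Sun5, a nuclear envelope protein that fastens the tail to the sperm head, gave 128, 127 and 123.4 FPKM in control, 153, 149 and 141 in HFD, 149, 139 and 143 in AOS and 169.7, 168 and 141 in HFD-AOS libraries. HFD-AOS 3 lay within the AOS range (log2 fold change 0.19, SE 0.046, adjusted p = 0.60). Spaca7, a protein of the acrosome, was at 142 to 172 FPKM without the diet and 164 to 211 with it (log2 fold change 0.19, SE 0.051, adjusted p = 0.63). Izumo2, a relative of the sperm protein that binds the egg, was outside that list. It was at 138, 133 and 144 FPKM in control, 162, 152 and 154 in HFD, 160.0, 152 and 161 in AOS and 189, 176 and 171 in HFD-AOS libraries. Each diet group lay above its own controls, and the HFD and AOS groups overlapped (log2 fold change 0.18, SE 0.034, adjusted p = 0.46).

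Elongating spermatid genes, 28 of 28 tested, had 22 higher and 6 lower estimates with a median of 0.037 (0.017 without HFD 1), which became -0.016 after quantile normalization, while that of round spermatid genes was 0.022. Unadjusted p-values under 0.05 were found for 2 members (7.14%, against 7.33% of all genes). These were Oaz3, an antizyme of late spermatids, and Meig1, which is needed to build the sperm tail. Meig1 was at 2088 to 2557 FPKM without the diet and 2225 to 2860.2 with it (log2 fold change 0.12, SE 0.040, adjusted p = 0.66). Prm1, a protamine that packs sperm DNA, had an estimate of 0.073. The earlier germ cell lists lay nearer to the median of all genes. Meiotic spermatocyte genes had 12 higher and 14 lower estimates of 26 and spermatogonial genes 7 and 8 of 15. Etv5, a factor of spermatogonial stem cells, was at 4.60 to 5.58 FPKM without the diet and 4.01 to 4.91 with it (log2 fold change -0.16, SE 0.059, adjusted p = 0.66). Boll, of the meiotic spermatocyte list, was at 84.8 to 88.9 and 75.0 to 85.1 FPKM (a log2 fold change of -0.12, SE 0.037, adjusted p = 0.66).

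Ribosomal protein genes, 82 of 82 tested, had 58 higher and 24 lower estimates with a median of 0.036 that became -0.0061 after quantile normalization and 0.0077 after adjustment for transcript length and GC content. None was called by limma, and 8 (9.76%, against 7.33% of all genes) were at an unadjusted p under 0.05, all higher. Nuclear genes of oxidative phosphorylation were split 39 to 38 of 77. Transcript length moved with the diet estimate: Spearman's rho across the 12830 genes with a length was -0.20, and it was 0.013 for GC content, as a description over genes that are not replicates. The median transcript was 3110 bases over all genes with a length, 1540 for round spermatid, 1184 for elongating spermatid, 1054 for ribosomal protein and 1094 for oxidative phosphorylation genes. After the same adjustment for length and GC content the median was 0.044 for round spermatid and 0.023 for elongating spermatid genes. The part of length in the spermatid and ribosomal medians was not tested beyond these adjusted medians.

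**Figure D3:**
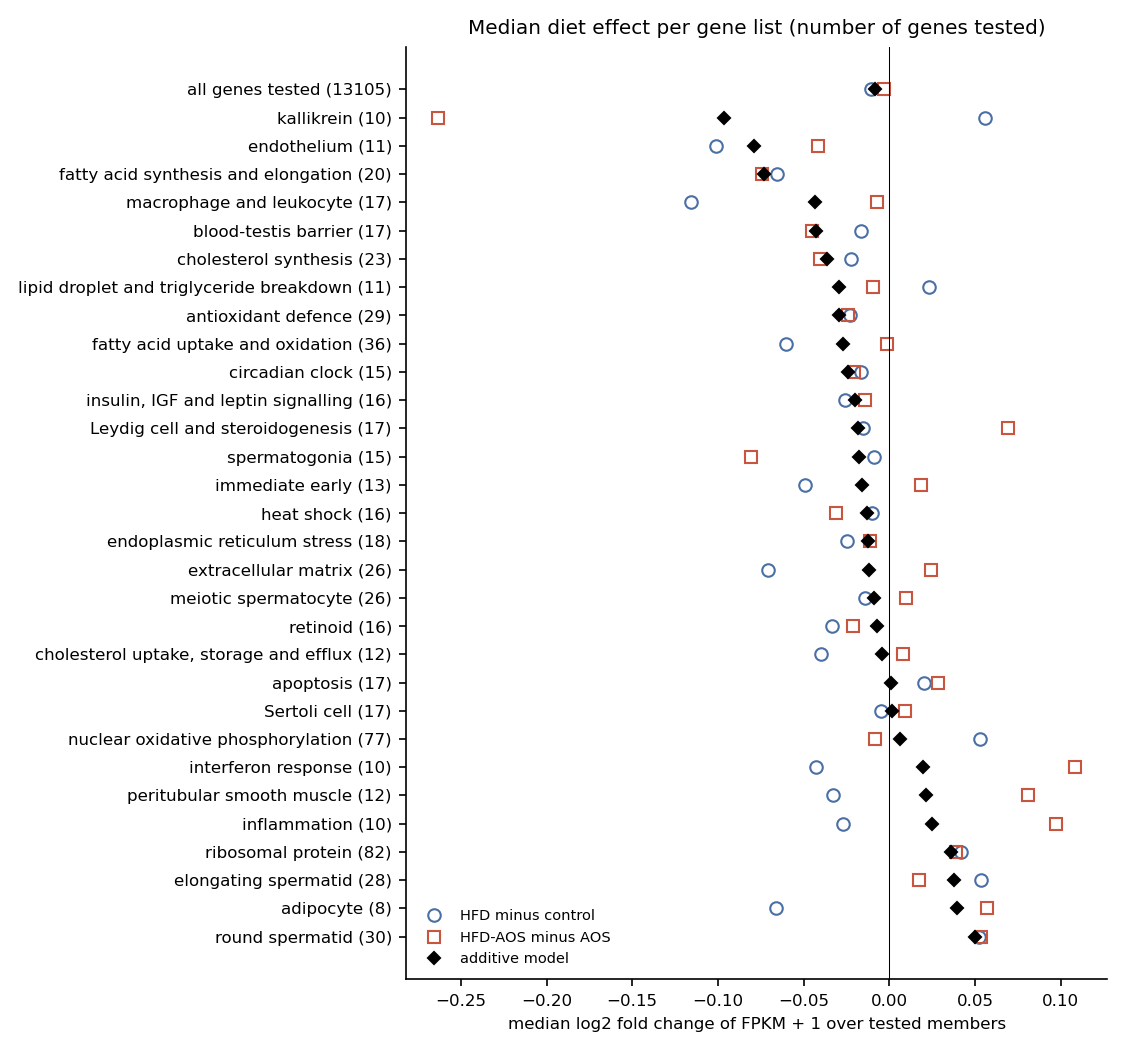
Median log2 fold change of FPKM + 1 (horizontal axis) over the tested members of each gene list, with the number tested in brackets. Filled diamonds are the additive model over 12 libraries, open circles HFD minus control and open squares HFD-AOS minus AOS, 6 libraries each; round spermatid genes gave 0.050, 0.052 and 0.053, and kallikreins -0.097, 0.056 and -0.26. The blood and epididymis lists, with 3 and 4 genes tested, are not drawn.

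Markers of blood vessels and macrophages mostly had estimates below 0. Endothelial markers had 11 of 15 members tested, 2 higher and 9 lower, with a median of -0.079 (-0.051 without control 3). Cldn5 and Sox17 (18.18% of the members tested, against 7.33% of all genes) were at an unadjusted p under 0.05. Cldn5, a claudin of tight junctions that is also on the blood-testis barrier list, was at 3.39 to 4.74 FPKM without the diet and 2.29 to 3.84 with it (log2 fold change -0.23, SE 0.095, adjusted p = 0.68). Sox17, an endothelial transcription factor, was at 5.99 to 7.42 and 4.97 to 6.99 FPKM (a log2 fold change of -0.15, SE 0.071, adjusted p = 0.68). The summed level of the 15 markers was 32.68 to 37.7 FPKM without the diet and 29.99 to 32.66 with it, ranges that nearly touch. That sum included the markers below the level needed for testing, Pecam1, Tek, Tie1 and Plvap. No other of the 32 gene lists had sums that were separate. The endothelial sum was singled out after the values were seen, so its separation is a description only. Macrophage and leukocyte genes had 3 higher and 14 lower estimates of 17, with a median of -0.043 that was 0.0035 without AOS 2. Their lowest p was that of Lyz2, the lysozyme of macrophages, at 14.4 to 22.4 FPKM without the diet and 13.2 to 18.1 with it (log2 fold change -0.23, SE 0.10, adjusted p = 0.68).

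Sertoli cell genes were split 9 to 8 of 17, with 0 at an unadjusted p under 0.05, and blood-testis barrier genes 3 to 14 of 17. Peritubular smooth muscle genes had 9 higher and 3 lower estimates and extracellular matrix genes 10 higher and 16 lower of 26. Timp2 and Fbln1 of the extracellular matrix list (7.69%, against 7.33% of all genes) were at an unadjusted p under 0.05. The epididymis and accessory gland list had 4 of 20 members tested, and its summed level was 7.10 to 8.83 FPKM with the diet and 6.5 to 219.9 without it, the highest being control 3. No member of these lists was called.

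The stress and inflammation lists gave no call either. Antioxidant defence had 10 higher and 19 lower estimates of 29, heat shock 5 and 11 of 16, apoptosis 10 and 7 of 17, inflammation 5 and 5 of 10 and the interferon response 6 and 4 of 10, all with 0 members at an unadjusted p under 0.05. The median of the interferon list was 0.019, and it was 0.11 without AOS 3 and -0.050 without AOS 1. Many inflammation genes were below the level needed for testing, with 10 of 27 tested. Among endoplasmic reticulum stress genes, 7 higher and 11 lower of 18, the stress response factor Atf4 was at 21.1 to 22.9 FPKM without the diet and 22.6 to 24.4 with it (log2 fold change 0.090, SE 0.035, adjusted p = 0.66). Mt2, a metallothionein that binds zinc and copper, belonged to the 24 genes named by smallest p. It was at 435, 363 and 376 FPKM in control, 447, 449 and 462 in HFD, 450.1, 468 and 457 in AOS and 646, 526 and 536 in HFD-AOS libraries. Each diet group was above its own controls, without AOS by 0.21 and with AOS by 0.31 (log2 fold change 0.26, SE 0.056, adjusted p = 0.49). Its neighbour Mt1, added after its values were seen, gave 0.20 (SE 0.097, adjusted p = 0.69).

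Tmigd3, a membrane protein with an immunoglobulin domain, was the gene with a higher estimate among the 24 whose groups were separate. Its level was 107, 96.1 and 119 FPKM in control and 132, 144 and 124 in HFD libraries. It was 116, 109 and 118 FPKM in AOS and 132, 132 and 127 in HFD-AOS libraries. All 6 diet libraries lay above the other 6 (log2 fold change 0.25, SE 0.054, adjusted p = 0.49). The beta-defensin Defb19 was at 223 to 268 FPKM without the diet and 263 to 329 with it (log2 fold change 0.25, SE 0.061, adjusted p = 0.56), with overlap. The remaining genes with higher estimates, Gapt, Ppdpf, Fam24b, Spata45, Apopt1 and Olfr128, had log2 fold changes between 0.18 and 0.34, and their groups overlapped.

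Split by AOS, the diet comparison gave 2 estimates per gene from separate libraries. HFD against control called 0 genes (0%) and had 684 at an unadjusted p under 0.05 (5.22%, of which 2.42% of those tested were higher and 2.8% lower, lowest adjusted p 0.90), and HFD-AOS against AOS called 0 genes (0%) and had 981 (7.49%, 4.04% higher and 3.45% lower, lowest adjusted p 0.18). The second of these called 1 gene when AOS 1 was left out (Cd7) and 1 when HFD-AOS 1 was left out (Gm20929), genes named after their values were seen. Across the 13105 genes the 2 estimates had a Pearson r of 0.019 and a Spearman rho of 0.063, a description over genes that are not replicates. They had the same sign in 6914 genes (52.76%), 3062 higher and 3852 lower in both. Of the genes at an unadjusted p under 0.05 in both, 56 had the same direction and 27 opposite directions. The diet libraries lay above their own controls in both comparisons, without overlap, in 33 genes (0.252%) and below them in 74 genes (0.565%).

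**Figure D4:**
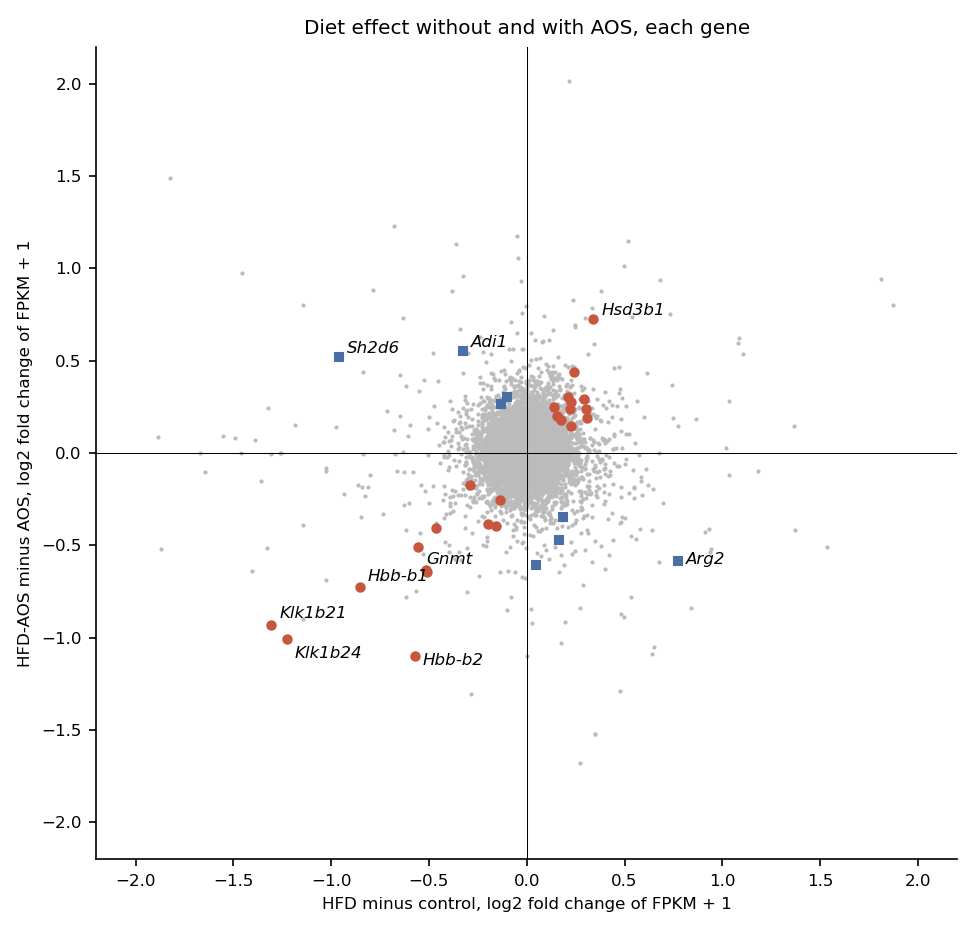
Each point is a gene, placed by the log2 fold change of FPKM + 1 for HFD minus control (horizontal) and HFD-AOS minus AOS (vertical), both axes limited to 2.2 on either side, which leaves out 3 genes. Red circles are the 24 genes named by smallest p in the additive model, which that choice places in the lower left and upper right. Blue squares are the 8 genes named by smallest p for the difference of the 2 effects. Predicted and clone names and genes under 2 FPKM were left out of both choices. All genes together form a round cloud with r = 0.019.

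The difference between the 2 diet effects was tested as the interaction of diet and AOS, and 0 genes were called (0%), with 705 at an unadjusted p under 0.05 (5.38%, 2.78% higher and 2.6% lower). The lowest p was that of Btbd35f20, an X-linked gene of a multicopy BTB domain family (adjusted p = 0.28). It was at 2.46, 2.68 and 2.68 FPKM in control, 3.19, 3.08 and 2.87 in HFD, 3.52, 3.32 and 3.22 in AOS and 2.19, 2.22 and 2.01 in HFD-AOS libraries. The HFD libraries lay above control and the HFD-AOS libraries below AOS, a difference of effects of -0.64 (SE 0.093), and reads of its copies cannot be separated with certainty. Adi1, an enzyme of methionine salvage, went the other way. It was at 5.58, 4.49 and 6.02 FPKM in control, 4.28, 4.44 and 3.50 in HFD, 3.24, 3.10 and 3.05 in AOS and 4.71, 5.29 and 5.18 in HFD-AOS libraries, a difference of 0.88 (SE 0.14, adjusted p = 0.30). Arg2, the mitochondrial arginase, was at 4.93, 2.80 and 2.46 FPKM in control, 5.68, 7.02 and 6.27 in HFD, 5.86, 6.03 and 7.47 in AOS and 3.90, 4.71 and 3.34 in HFD-AOS libraries, a difference of -1.36 (SE 0.25, adjusted p = 0.81). Without control 1, the highest control library, that of Arg2 was -1.59 with an adjusted p of 0.034, and over all alternatives tried its adjusted p ran from 0.034 to 0.97. The remaining genes named by smallest p, Sh2d6, Ttll6, Tpm3, Sh2b2 and Plcg2, each had an adjusted p of 0.85.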

How the data were processed

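Total RNA of mouse testis was sequenced in 18 libraries, 3 in each of 6 groups. The authors deposited 1 table of 20985 rows of gene symbols by library, whose header names no unit. Its values behave as FPKM, since the smallest value above 0 fell with transcript length (Spearman's rho -0.578 over 3407 genes), and the deposited FPKM were used as such. Per the submitters' processing notes, Bowtie 0.12.2 and the mm10 build were used, and how reads were counted, on which annotation and with which strand setting, is not given in the sources used here. Symbols present more than once (3 symbols, 6 rows) were dropped.

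Groups came from the labels. Genes averaging 1 FPKM or more across the 18 libraries were tested on log2(FPKM + 1) with limma 3.58.1 in R 4.3.3, with a mean-variance trend, two-sided and with Benjamini-Hochberg adjustment over all 13105 genes. The call threshold was an adjusted p of 0.05. The diet effect came from an additive fit with AOS, and the effects with and without AOS and their difference from a fit of 4 group means (8 residual degrees of freedom). The scripts were tested on simulated data. Named genes were the 12 per direction of smallest p for the diet (4 for the difference), leaving out predicted and clone names and genes under 2 FPKM. The 2 tested members of smallest p in each list were also named, without these limits. The libraries, the 32 gene lists and the comparisons were chosen with earlier results of these data known. Coordinates are those of GENCODE on mm10. Sequences are from RefSeq (GRCm38.p6), where 5 of 5 promoters looked for were found. Alternatives covered pseudocounts, filters, scalings, designs and leaving out each library.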

Additional observations from a re-analysis of the deposited data

How the results depend on the processing

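The count of 0 genes called for the diet held in all 26 alternatives, with a lowest adjusted p between 0.11 (without AOS 3) and 0.81 (diet alone). Fitting all 18 libraries gave 0.24. No estimate of a gene named by the rule changed sign, and of 13 others recomputed 4 did (Star, Cyp11a1, Lhcgr and Alas2). Medians of gene lists were unstable: 20 of 32 changed sign in some alternative, Sertoli cell genes in 10 and interferon genes in 8, and 30 of 32 moved over 1.5 times or changed sign with a library left out. With no filter on low values, 2 genes were called for HFD against control (Olfr655 and Gm4705) and 1 for the difference of the diet effects (Gm4705). With no mean-variance trend, 1 gene was called for HFD-AOS against AOS (Btbd35f20, adjusted p = 0.041). Leaving out each library in turn gave 0 to 1 genes for the difference (Arg2 without control 1) and 0 to 1 for HFD-AOS against AOS. The cause of these was not tested. The correlation of the 2 diet effects was -0.014 with a pseudocount of 0.1 and -0.025 to 0.061 with a library left out. The labels do not say whether replicate numbers pair the libraries, and 3 libraries per group are too few to decide it. Same-numbered pairs correlated over 0.1 in 1 of 18 cases, and 4 of 12 libraries correlated best with their own number. With the replicate number as a block, 0 genes were called for the diet (lowest adjusted p 0.41). Unadjusted p-values under 0.05 were then found for 1061 genes, against 960 without the block. For HFD against control the block gave a lowest limma adjusted p of 0.21, against 0.90 without it. The depth is unknown, and 3 libraries per group limit the precision.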

Other observations

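The 6 transplant libraries, all from mice on the high-fat diet, entered the diet test in 1 alternative only. For the 24 genes named by smallest p for the diet, a transplant library was counted on the diet side where it lay beyond the midpoint of the means with and without the diet. All 6 lay there for Klk1b21, Klk1b24, Mmd2 and Ass1, 5 of 6 for another 6 genes, and 4 or fewer for 14. Ass1 was at 45.9 to 69.3 FPKM (median 62.5) in them and Klk1b21 at 1.44 to 6.03 (median 3.77). Zbtb42, at 15.4 to 18.1 FPKM, and Olfr128 had none of the 6 there. The same counts over all genes tested were not computed, and the midpoints come from the libraries by which the 24 genes were chosen. The counts are therefore a description only. Hsd3b6 took 13.7% ± 3.47 of its sum with Hsd3b1 in the HFD-conFMT and 24.1% ± 8.68 in the HFD-AOSFMT libraries (SD, n = 3). Spink4, a secreted protease inhibitor named after its values were seen, was at 4.19, 3.37 and 4.43 FPKM in control, 8.68, 6.5 and 3.79 in HFD, 6.49, 10.2 and 5.09 in AOS and 18.2, 12.1 and 15.6 in HFD-AOS libraries (log2 fold change 0.76, SE 0.19, limma adjusted p = 0.61). The HFD-AOS libraries were above every other library of the 4 groups for this gene.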
